A study of Mus musculus with 4 samples.

Results

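The change of the LPS response by Ruvbl2 siRNA was measured gene by gene in RAW264.7, a macrophage-like line of mouse origin, as the log2 difference between LPS and DMSO with Ruvbl2 siRNA minus the same difference with control siRNA. A change below 0 means that a gene went up less, or down more, with LPS when Ruvbl2 was targeted. A change above 0 means the reverse. A gene was compared when its probe was well above background on all 4 arrays, which held for 12471 of the 22911 named genes. Of the others, 1486 were well above background on 1 to 3 arrays and 8954 on none.

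The study used 1-colour Agilent mouse arrays, with 1 array for each of 4 groups. The groups were control siRNA with DMSO, control siRNA with LPS, Ruvbl2 siRNA with DMSO and Ruvbl2 siRNA with LPS. LPS, or lipopolysaccharide, is a bacterial cell wall component, and DMSO stood in its place on the control arrays. The control siRNA was non-targeting, and the Ruvbl2 siRNA was a pool of several siRNAs (a SMARTpool) whose target is spelled siRvbl2 in the titles and RUVBL2 in the series text. RNA was taken 2 days after transfection, and neither the dose nor the time of LPS is given in the sources used here. With 1 array per group no value has a replicate check, so all values below are differences between these 4 arrays, and no test was possible.

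RUVBL2 is an AAA+ ATPase that works together with RUVBL1 in the INO80, SRCAP and TIP60 chromatin remodelling complexes and in the R2TP chaperone complex, which helps to assemble large kinases and RNA polymerases. LPS is sensed by Toll-like receptor 4 and switches on macrophage genes in steps. Primary response genes are driven directly by NF-kB and other factors already present in the cell. Secondary response genes need newly made regulators such as IkB-zeta, the product of Nfkbiz, and interferon-stimulated genes answer to the interferon beta that the cells release.

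All 8 macrophage markers checked, among them Csf1r, Adgre1 and Cd68, were well above background on every array. Of the wider macrophage identity list read below, Mertk and Cd163 were on none. Mrc1 was on the control siRNA LPS array only and Csf1 on the LPS arrays only. Among markers of other cell types, Cd3g, Ms4a1, Cpa3, Col1a1, Col3a1, Epcam and Krt5 were on none. Cd3d, Cd3e, Lck, Pax5, Tpsb2 and Elane were on all 4, and S100a8 was on all but the control siRNA DMSO array. Of 11 T cell markers on the array 7 were detected on each array, of 9 B cell markers 3 or 4, of 15 neutrophil and mast cell markers 3 to 6, and of 13 fibroblast and epithelial markers 1 to 3. Levels here and below are log2 signals relative to the array's 75th percentile, so that 0 is the 75th percentile. Over the arrays the summed level ran from 2.43 to 2.94 for the T cell markers, from -0.76 to -0.38 for the B cell markers, from -0.02 to 1.25 for the neutrophil and mast cell markers and from -2.29 to -2.04 for the fibroblast and epithelial markers. In the neutrophil and mast cell list, S100a8 stood at -6.15 in DMSO and 0.24 in LPS with control siRNA. With Ruvbl2 siRNA it stood at -2.42 and 0.53. Cma1 of that list was on the Ruvbl2 siRNA DMSO array only, at -1.19. The part of these markers in the results was not tested. On the slide, row 1 held the control siRNA arrays and row 2 the Ruvbl2 siRNA arrays. Position and siRNA therefore cannot be told apart. Scaling the arrays on the median level of 7 E1A spike-in probes, RNA added in known amount, would add 0.30 to the change of every gene and move the median of all genes from -0.03 to 0.26. It would lower the siRNA difference of every gene in DMSO by 0.30 and move that in LPS by -0.0059. A lower gene within 0.30 of the 2-fold limit is then no longer past it. Probe by probe, the change of the 7 spike-in probes ran from -0.35 to -0.15, with a median of -0.24. The shift of 0.30 is therefore itself uncertain. Where this scaling turns the sign of a list's median change, both values are given.

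The targeted gene stood slightly lower with its siRNA in both treatments. Ruvbl2 had levels of 5.01 in DMSO and 4.92 in LPS with control siRNA, and of 4.67 and 4.51 with Ruvbl2 siRNA. The Ruvbl2 siRNA arrays were thus at 79.2% of control in DMSO and 75.7% in LPS, and the change of its LPS response was -0.06 (0.23 with spike-in scaling). A dimmer second probe stood at 68.5% of control in DMSO and 92.2% in LPS, a change of 0.43, so the probes did not give the same order of the treatments. Ruvbl1, the partner ATPase, had a change of 0.14.

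Most genes answered LPS alike with both siRNAs. The median change over the 12471 genes was -0.03, with an interquartile range of -0.21 to 0.15. Of these genes 6856 (54.98%) lay below 0. A change of at least 1 on the log2 scale, or 2-fold, was found in 211 genes (1.69%), or in 110 (1.04%) of the 10569 genes with a mean level of at least -2. Of the 211, 147 had a smaller or more negative response with Ruvbl2 siRNA (1.18%) and 64 a larger one (0.513%). With spike-in scaling the counts were 61 lower and 227 higher, so the prevailing direction depended on the scaling: lower genes made up 69.7% of the changed genes as scaled here and 21.2% with spike-in scaling. Among the brighter genes the counts were 82 lower (0.776%) and 28 higher (0.265%). Technical error was taken from probes printed 10 times and the spike-in probes. It gave an SD of the change of 0.065 for levels of at least 2 (273 probes) and 0.13 from -2 to 2 (6 probes). From -4 to -2 the SD was 0.26 (6 probes). It was 0.51 below -4, where it rests on 1 probe. Of the 211 genes, 202 changed by at least 3 such SDs (1.62% of all genes), but this error covers spots on one array and not separate cultures. Each gene was given the SD of its mean level over the 4 arrays. Klra2, at -4.08 in DMSO with control siRNA but with a mean level of -1.02, was thus given 0.13. For genes dim in DMSO and bright in LPS the SD may be too small, and the count of 202 too high. The median level of the 211 genes was -1.84, where the SD rests on 6 probes. Among genes with a mean level of at least -2, the nearest values inside the 2-fold rule were Mib2 at -1.003 and Thoc2 at 1.001, and the nearest outside were Lims2 at -0.99 and Ocstamp at 0.995.

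The change is by construction the siRNA difference in LPS minus the siRNA difference in DMSO, so each gene can be traced to the treatment in which the siRNAs parted. A change was said to arise in LPS when at least 66.7% of it came from the difference in LPS, in DMSO when at most 33.3% did, and otherwise in both, with the siRNAs apart in opposite directions. Of the 147 lower genes, 70 arose in LPS, 32 in DMSO and 45 in both. Of the 64 higher genes, 23 arose in LPS, 19 in DMSO and 22 in both. Among brighter genes, with a mean level of at least -2, LPS held 46 of the 82 lower genes, DMSO 13 and both 23. For the 28 higher genes of that brightness the split was 9, 9 and 10. As background, the siRNAs differed 2-fold in LPS in 52 genes upward (0.417%) and 117 downward (0.938%), and in DMSO in 45 upward (0.361%) and 56 downward (0.449%).

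**Figure D1:**
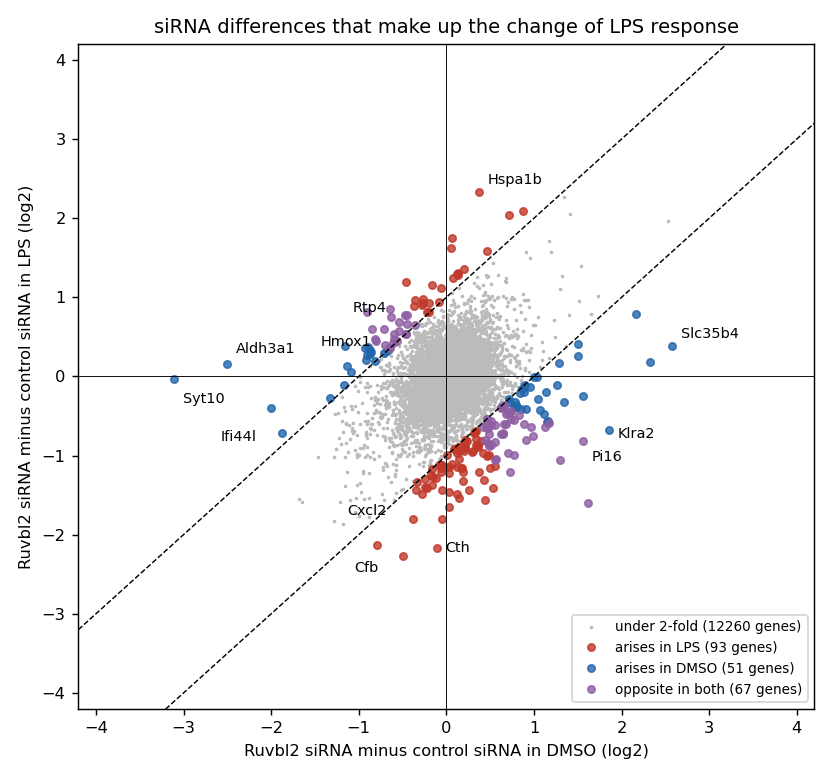
The siRNA difference (Ruvbl2 siRNA minus control siRNA, log2) in DMSO on the horizontal axis and in LPS on the vertical axis for 12471 genes, 1 point per gene. Dashed lines mark a 2-fold change of the LPS response, which 211 genes passed: 93 arising in LPS (red), 51 in DMSO (blue) and 67 in both with opposite signs (purple).

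By the response itself, 41 of the 147 lower genes went up at least 2-fold with LPS with both siRNAs, only less so with Ruvbl2 siRNA. Another 43 went up 2-fold with control siRNA alone, 14 went down 2-fold with Ruvbl2 siRNA alone, and 47 passed 2-fold with neither siRNA. Of the 64 higher genes, 15 went up 2-fold with Ruvbl2 siRNA alone, 9 went down 2-fold with control siRNA alone and 34 passed 2-fold with neither.

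The change went with the strength of the LPS response. Genes were sorted by the mean of the LPS responses with both siRNAs, a measure that gives neither siRNA more weight. Among 39 genes with a mean response of at least 3 (8-fold) the median change was -0.71, with 13 lower and 0 higher. Among 75 genes between 2 and 3 it was -0.45, with 19 lower and 1 higher, and among 329 genes between 1 and 2 it was -0.35, with 25 lower and 4 higher. The lower genes made up 33.3%, 25.3% and 7.60% of these groups, against 1.18% of all genes. The higher genes made up 0%, 1.33% and 1.22%, against 0.513%. The 10168 genes with a mean response between -0.5 and 0.5 had a median of -0.03, and the 199 genes that went down by at least 1 had one of 0.13. For the 39 most induced genes the siRNA difference had a median of -0.75 in LPS and of 0.03 in DMSO. With spike-in scaling the median change of the most induced genes was -0.35 and that of the genes between 1 and 2 was 0.02, against 0.26 for all genes, so the sign of the latter turned. The counts, with the genes sorted anew under that scaling, were then 8 lower and 2 higher among 50 most induced genes and 12 lower and 17 higher among 497 genes between 1 and 2. Over all 12471 genes that scaling gave 61 lower and 227 higher. In bulk RNA, a lower level in every cell and fewer responding cells cannot be told apart.

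**Figure D2:**
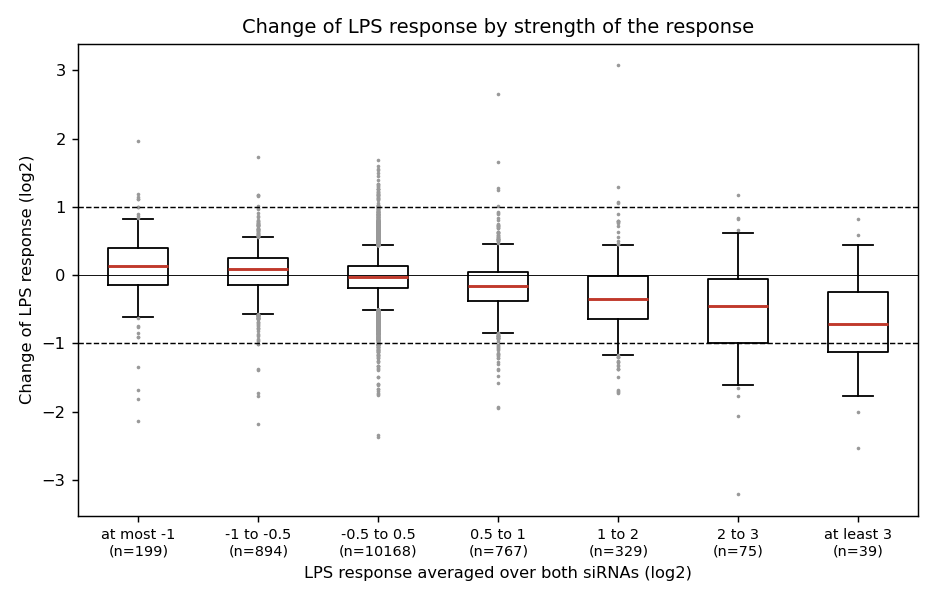
Change of the LPS response (log2, vertical axis) for genes grouped by their LPS response averaged over both siRNAs (log2, horizontal axis), with the number of genes in each group. Boxes span the quartiles with the median in red, whiskers reach to the outer 5% on each side, and the median runs from 0.13 in the group at most -1 to -0.71 in the group at least 3.

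The best known LPS targets differed widely in their change. Tnf, a primary response cytokine, stood at 3.47 in DMSO and 5.44 in LPS with control siRNA and at 3.46 and 5.46 with Ruvbl2 siRNA. Its LPS-to-DMSO ratio was 3.92 with control siRNA and 3.998 with Ruvbl2 siRNA, a change of 0.03. The Tnf response was thus alike on both pairs of arrays, although spike-in scaling gave 0.32.

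Other inflammatory genes had weaker responses, and the siRNAs parted in LPS. Cxcl2, a chemokine that draws neutrophils, had levels of -2.73 and 2.17 with control siRNA and of -3.12 and 0.38 with Ruvbl2 siRNA, a change of -1.41. Ptgs2, the inducible cyclooxygenase, went from -0.47 to 3.38 and from -0.28 to 2.06, a change of -1.52. Nos2, the inducible nitric oxide synthase, went from -1.52 to 4.09 and from -1.58 to 3.05, a change of -0.98 that fell just short of 2-fold. For all 3 genes the DMSO levels differed by at most 0.38 between the siRNAs, and the gap opened in LPS. Ccl2, a chemokine for monocytes, was at -0.69 and 6.39 with control siRNA and at -0.40 and 5.97 with Ruvbl2 siRNA, a change of -0.71 to which both treatments contributed.

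Cxcl10, an interferon-inducible chemokine, went the other way. Its levels were 2.497 and 3.01 with control siRNA and 1.41 and 2.63 with Ruvbl2 siRNA. The LPS-to-DMSO ratio was 1.43 and 2.34, a change of 0.71 (1.01 with spike-in scaling). This change arose in DMSO, where Cxcl10 was lower with Ruvbl2 siRNA by 1.09, and the level in LPS was lower as well, by 0.38.

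The 250 bases before the start sites of Cxcl2 and Cxcl10 are shown because these chemokine genes changed in opposite directions. They are RefSeq sequences of build GRCm38.p6, read 5′ to 3′ on the gene's strand, with Cxcl2 at chr5:90903649-90903898 on the plus strand and Cxcl10 at chr5:92348890-92349139 on the minus strand. Capitals mark matches, on either strand, to an NF-kB motif (GGGA, any base, TTTCC) or to an interferon response element (GAAA, any 2 bases, GAAA), which do not overlap here.
Cxcl2: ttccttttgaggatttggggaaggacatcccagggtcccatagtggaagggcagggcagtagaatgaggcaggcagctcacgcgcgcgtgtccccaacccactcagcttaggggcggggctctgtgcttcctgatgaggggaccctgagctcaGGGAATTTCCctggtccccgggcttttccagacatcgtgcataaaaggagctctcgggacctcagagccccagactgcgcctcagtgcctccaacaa
Cxcl10: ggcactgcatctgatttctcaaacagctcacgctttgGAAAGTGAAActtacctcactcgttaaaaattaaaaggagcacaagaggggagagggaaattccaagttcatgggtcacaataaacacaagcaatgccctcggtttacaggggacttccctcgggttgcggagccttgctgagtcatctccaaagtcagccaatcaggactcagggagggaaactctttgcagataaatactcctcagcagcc
In the windows searched, which run on to 50 bases after the start site, Cxcl2 held 1 NF-kB match, beginning 97 bases before the start site, and no interferon element. Cxcl10 held 1 interferon element, beginning 213 bases before the start site, and no match to these NF-kB letters. The letters searched are a narrow form of the motif. The Cxcl10 sequence also holds gggaaattcc and ggggacttcc, which come close to them and were not counted. The absence of a match therefore does not set Cxcl10 apart as a promoter without NF-kB-like letters. Of 32851 promoters of the same length, 0.411% held the NF-kB motif and 3.44% the interferon element. The NF-kB motif was in 0 of 9 promoters of secondary response genes, which cover 9 of the 14 compared below. It was in 2 of 38 promoters of 30 primary response genes. Among lower genes arising in LPS it was in 1 of 59 promoters, that of Cxcl2. Of the 12471 genes compared, 9995 had a RefSeq promoter. The 51 of these with an NF-kB match had a median change of -0.07 and the 9944 without one of -0.04. Such matches describe the letters and show no binding.

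Genes of the secondary response, many of them dependent on IkB-zeta, had the most negative median of all 21 lists other than cell type markers. Of 33 genes listed, 14 could be compared, 11 were well above background on some arrays only and 8 on none. Their median change was -0.84 (-0.55 with spike-in scaling), with 6 of 14 lower (3 with spike-in scaling) and 0 higher, against 1.18% lower and 0.513% higher among all genes. The genes of this list were chosen as LPS targets with results of these arrays known, so the count is a description.

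Cfb, complement factor B, had levels of -3.01 and 1.29 with control siRNA and of -3.51 and -0.98 with Ruvbl2 siRNA, a change of -1.77. Fpr2, a receptor for formyl peptides, went from -4.14 to 2.56 and from -3.70 to 0.997, a change of -2.005. Nfkbiz itself went from -1.13 to 1.505 and from -1.29 to 0.23, a change of -1.12 (-0.67 by its dimmer second probe, and -0.90 as the mean of both). In these genes the siRNA difference lay in LPS: -2.27 for Cfb, -1.56 for Fpr2 and -1.27 for Nfkbiz. Acod1, which makes itaconate, belonged with them, at 1.61 and 6.78 with control siRNA and at 1.55 and 5.65 with Ruvbl2 siRNA.

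Saa3 and Lcn2 reached the same count by another path. Saa3, an acute phase protein gene, stood at -1.45 and 3.21 with control siRNA and at -0.27 and 2.62 with Ruvbl2 siRNA, so that it was higher in DMSO by 1.17 and lower in LPS by 0.59. Lcn2, which scavenges bacterial iron carriers, stood at -4.14 and 2.61 and at -3.34 and 2.25. Its change of -1.16 arose in DMSO, where the siRNAs differed by 0.80. At the other end of the list Cd40, a co-stimulatory receptor, had a change of 0.02 and Gpr84, a fatty acid receptor, one of 0.28.

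Primary response genes were less affected as a group. Their median change was -0.22 over 38 genes, and it turned to 0.07 with spike-in scaling. There were 4 lower (10.5%, against 1.18% of all genes) and 0 higher (0.513% of all genes). The lower genes were Ptgs2, Cxcl2, Ccrl2 and Phlda1. Ccrl2, an atypical chemokine receptor, went from -3.27 to -0.0036 with control siRNA and from -3.15 to -1.49 with Ruvbl2 siRNA, a change of -1.61, and Phlda1 had one of -1.10. All 4 changes arose in LPS. Several primary genes changed upward by less than 2-fold, among them the adhesion molecule gene Icam1 (0.78) and Ier3 (0.55).

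Of 10 chemokine genes compared, 2 were lower and 0 higher, and the median was -0.47 (-0.18 with spike-in scaling). Among all genes 1.18% were lower and 0.513% higher. Cxcl2 was joined by Ccl6, at -1.85 and 0.79 with control siRNA and -1.91 and -0.33 with Ruvbl2 siRNA, a change of -1.06 (-0.91 with normexp and quantile normalization, inside 2-fold). Ccl3 and Ccl4, chemokines that attract leukocytes, had changes of -0.58 and -0.46, while Ccl5, which is also interferon-inducible, had one of 0.24 and Cxcl16 one of 0.34. The list thus held both signs.

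Genes of NF-kB and its feedback had a median of -0.12 over 25 genes, which turned to 0.17 with spike-in scaling, and Nfkbiz was the only 1 past 2-fold. Among all genes 1.69% were past 2-fold. Bcl3, another nuclear IkB protein, had a change of -0.75 and Nfkbia, the inhibitor IkB-alpha, one of -0.54, whereas Traf1 had one of 0.45. Toll-like receptor 4 and its signalling proteins had a median of -0.01 over 37 genes, and 0 were past 2-fold. Tlr4 itself had the most negative value of that list, at -0.55, and Irf5 the most positive, at 0.45. With spike-in scaling the median of that list was 0.28, next to 0.26 for all genes.

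Genes that restrain inflammation lay mostly below 0. Of 26 anti-inflammatory and feedback genes 20 lay below 0, with a median of -0.44 (-0.14 with spike-in scaling), 2 lower and 1 higher. These were 7.69% and 3.85% of the list, against 1.18% lower and 0.513% higher among all genes. Of all genes 54.98% lay below 0. With spike-in scaling 15 lay below 0, with 0 lower and 1 higher. Il1rn, the interleukin-1 receptor antagonist, stood at 0.69 and 5.04 with control siRNA and at 1.13 and 4.24 with Ruvbl2 siRNA, a change of -1.24 (-1.54 by its second probe). Cd274, which encodes the checkpoint ligand PD-L1, went from -3.74 to -1.05 and from -3.44 to -1.99, a change of -1.25 that was inside 2-fold with spike-in scaling (-0.95) and with normexp and quantile normalization (-0.76). The 1 higher gene was Hmox1, heme oxygenase 1, described with the DMSO-derived changes. Socs1, an inhibitor of cytokine signalling, had a change of 0.45.

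**Figure D3:**
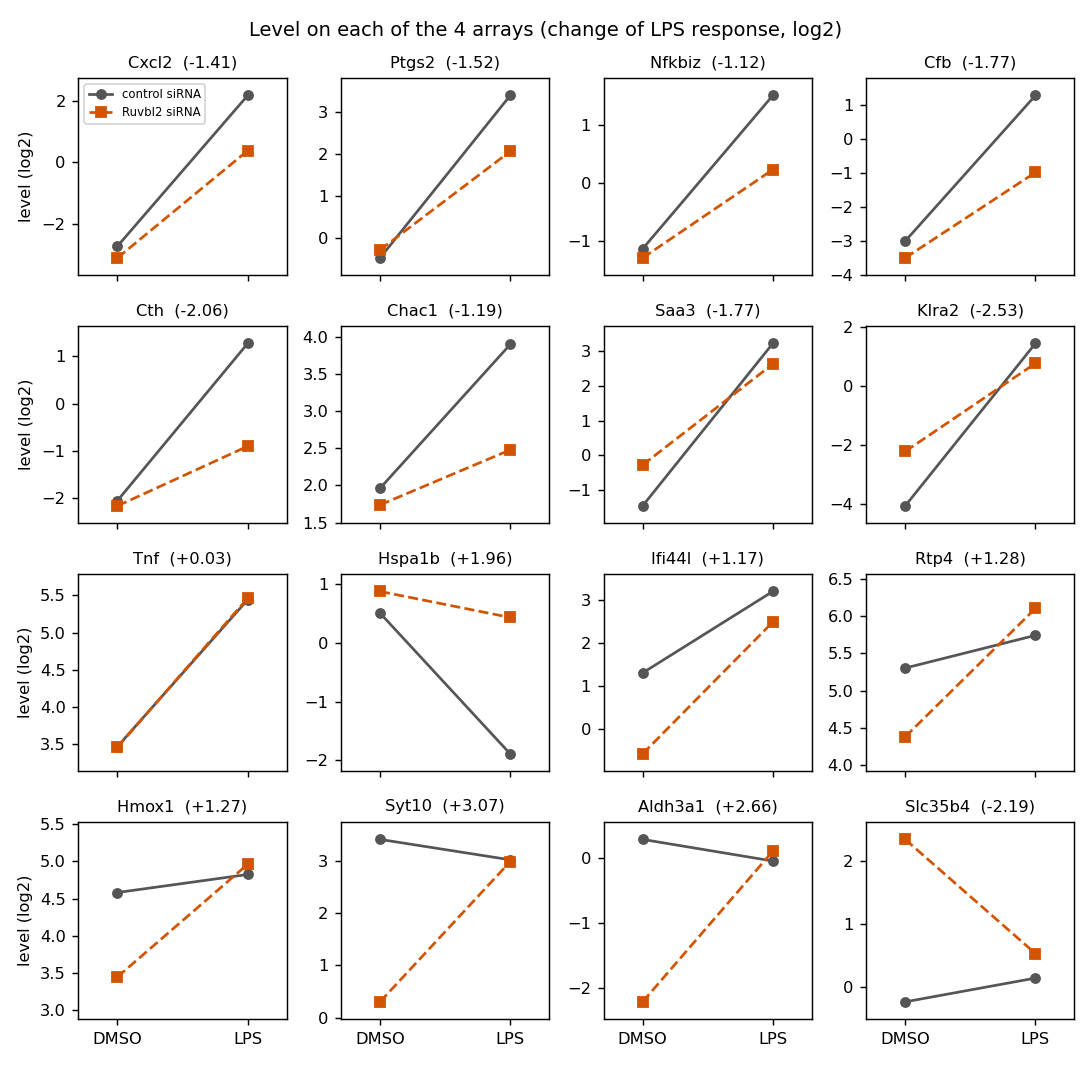
Level (log2 signal relative to the array's 75th percentile, vertical axes with their own ranges) of 16 genes in DMSO and LPS, with control siRNA as grey circles and Ruvbl2 siRNA as orange squares. The number in each title is the change of the LPS response; in the top row the lines part in LPS, while Syt10, Aldh3a1 and Slc35b4 part in DMSO.

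Interferon-stimulated genes lay on the other side of 0 from the secondary response genes. Of 65 genes compared 48 lay above 0, with a median change of 0.27 (0.56 with spike-in scaling, with 56 above 0), 2 past 2-fold upward (14 with spike-in scaling) and 0 downward. The 2 genes were 3.08% of the list, against 0.513% upward and 1.18% downward among all genes. Of all 12471 genes 54.98% lay below 0. With spike-in scaling 227 of all 12471 genes were past 2-fold upward and 61 downward. The median of all genes was then 0.26, so the count of 56 above 0 includes this general shift. The larger siRNA difference lay in DMSO, where 60 of 65 were lower with Ruvbl2 siRNA, with a median difference of -0.60. In LPS 48 were lower, with a median of -0.41. In 33 genes the siRNA difference was negative in both treatments but closer to 0 in LPS, and in 14 it was negative in DMSO and positive in LPS.

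Ifi44l, an interferon-induced gene, had levels of 1.31 and 3.20 with control siRNA and of -0.57 and 2.49 with Ruvbl2 siRNA, a change of 1.17 (0.82 with normexp and quantile normalization, inside 2-fold). Rtp4, an interferon-induced transport protein gene, stood at 5.30 and 5.74 with control siRNA and at 4.38 and 6.10 with Ruvbl2 siRNA, a change of 1.28. In Ifi44l the Ruvbl2 siRNA level was the lower one in both treatments, while in Rtp4 it was lower in DMSO and higher in LPS. Slfn8 (0.90, but -0.12 by a dimmer second probe) and the antiviral synthetase gene Oas2 (0.89) came next. Isg20, an antiviral exonuclease, ran against the list: it stood at 1.69 and 4.41 with control siRNA and at 0.41 and 2.58 with Ruvbl2 siRNA, a change of -0.54, as did Ms4a6d (-0.59) and Ifit3b (-0.49).

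Of the 54 interferon-stimulated genes with a RefSeq promoter, 26 held the interferon element described above, in 43.8% of their promoters against 3.44% of all promoters. Their median change was 0.31, and that of the 28 genes without a match 0.26. In DMSO the median siRNA difference was -0.69 with a match and -0.48 without, and in LPS it was -0.40 and -0.44. Over the 9995 genes compared that had a promoter, the 380 with a match had a median change of -0.0046 and the 9615 without one of -0.04. The change thus differed little between genes with and without the element in this window. In listed genes with a match the DMSO difference was more negative and the LPS difference slightly less so, which was not tested.

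**Figure D4:**
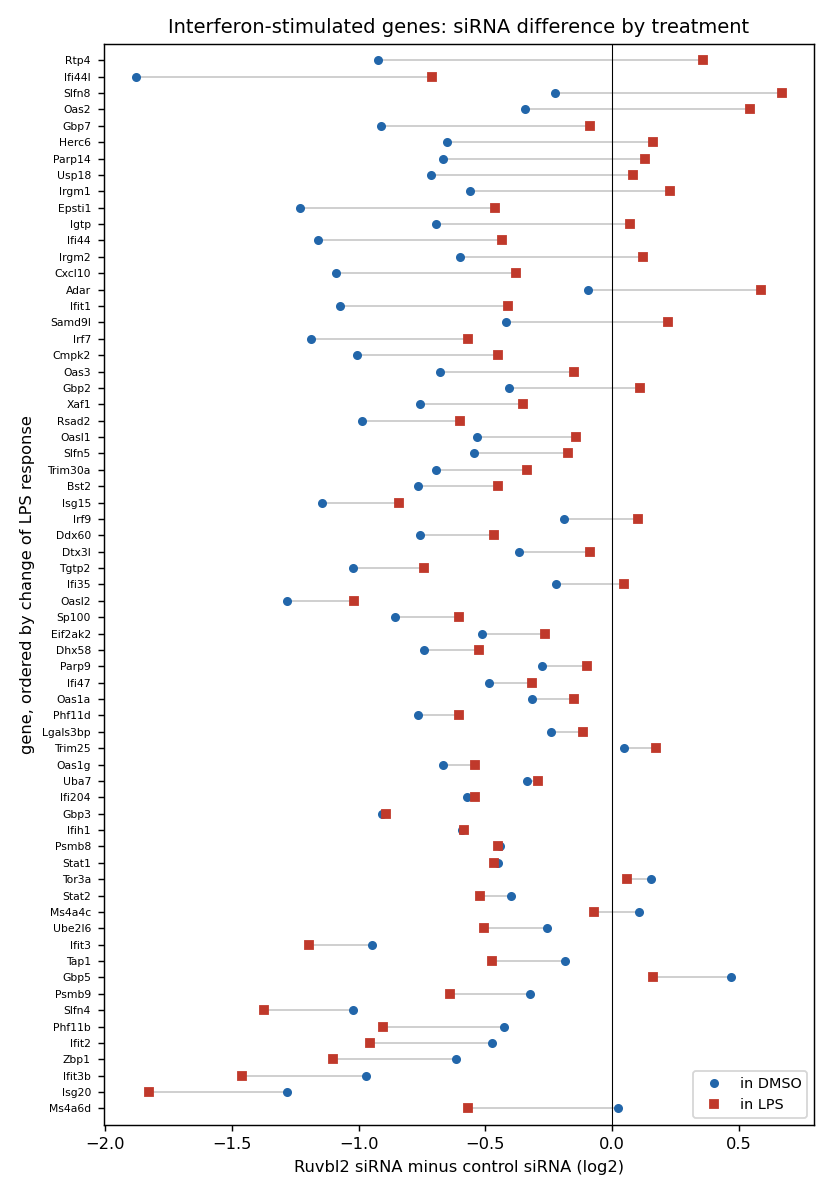
Ruvbl2 siRNA minus control siRNA (log2, horizontal axis) in DMSO (blue circles) and in LPS (red squares) for 65 interferon-stimulated genes, ordered from the largest change of the LPS response at the top. In 48 genes the LPS value lies to the right of the DMSO value, and 60 of the DMSO values lie below 0.

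Genes of amino acid supply and the ATF4 stress programme had weaker LPS responses with Ruvbl2 siRNA. ATF4 is a transcription factor that switches on amino acid synthesis and transport when amino acids run short or other stress is sensed. Of 42 genes compared 39 lay below 0, with a median of -0.45 (-0.16 with spike-in scaling, with 32 below 0), 6 lower and 0 higher (3 and 1 with spike-in scaling). The 6 lower genes were 14.3% of the list, against 1.18% lower and 0.513% higher among all genes. Of all genes 54.98% lay below 0. With spike-in scaling 61 of all 12471 genes were lower and 227 higher. In this list the siRNA difference had a median of -0.42 in LPS and of 0.02 in DMSO, and the latter turned to -0.29 with spike-in scaling. As scaled here, all 6 lower genes arose in LPS. The median LPS response was 0.44 with control siRNA and -0.02 with Ruvbl2 siRNA.

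Cth, which makes cysteine from cystathionine, stood at -2.05 and 1.27 with control siRNA and at -2.16 and -0.90 with Ruvbl2 siRNA, a change of -2.06. Aldh1l2, a mitochondrial folate enzyme gene, went from -0.80 to 0.53 and from -0.85 to -1.27, a change of -1.75 (-1.68 by its second probe). Pck2, the mitochondrial phosphoenolpyruvate carboxykinase, went from 3.04 to 3.91 and from 3.07 to 2.45, a change of -1.49 (-1.54 by its second probe). In these genes the DMSO levels differed by at most 0.11, and in Aldh1l2 and Pck2 the level went up with LPS with control siRNA and down with Ruvbl2 siRNA.

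Chac1, which degrades glutathione, had levels of 1.96 and 3.89 with control siRNA and of 1.74 and 2.48 with Ruvbl2 siRNA, a change of -1.19. Ddit3, which encodes the stress factor CHOP, had a change of -1.14 and Ddit4, an inhibitor of mTORC1 signalling, one of -1.10. Asns, asparagine synthetase, stood at 6.46 and 7.18 with control siRNA and at 6.62 and 6.57 with Ruvbl2 siRNA, a change of -0.77. The exceptions were Slc38a2 and Slc7a3, amino acid transporters with changes of 0.52 and 0.71, and Mars1 at 0.01. The unfolded protein response, a neighbouring stress programme, had a median of 0.03 over 27 genes with 0 past 2-fold, against 1.69% of all genes.

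Heat shock and chaperone genes had a median of 0.07 over 29 genes, with 1 higher (0.513% of all genes) and 0 lower (1.18% of all genes). That gene was Hspa1b, an inducible heat shock protein 70. It stood at 0.51 in DMSO and -1.89 in LPS with control siRNA and at 0.88 and 0.44 with Ruvbl2 siRNA. Its LPS-to-DMSO ratio was 0.189 with control siRNA and 0.735 with Ruvbl2 siRNA, a change of 1.96 that arose in LPS. Only the control siRNA LPS array was low for this gene, and the others lay within 0.5 of each other. Hspa1b is nearly identical to its neighbour Hspa1a, and a probe may read both. The brightest probe named for Hspa1a was well above background on none of the arrays. Hsph1, a co-chaperone of the same family, had a change of 0.78.

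Other programmes held few changes, beside 1.18% lower and 0.513% higher among all genes. Glycolysis and hypoxia genes were lower with Ruvbl2 siRNA in both treatments, by medians of -0.25 in DMSO and -0.37 in LPS, so that the median change was only -0.12 over 43 genes, turning to 0.17 with spike-in scaling. Among p53 targets, 1 of 32 was lower, Plk2 at -1.06 (-0.83 with normexp and quantile normalization, inside 2-fold), and the highest was Epha2 at 0.93, with a median of 0.09. Sterol genes (median -0.01 over 38, turning to 0.28 with spike-in scaling) and DNA replication genes (0.03 over 40) had 0 past 2-fold. Mitosis genes lay above 0 in 32 of 38 cases with a median of 0.11, and the largest was the kinetochore gene Cenpf at 0.92. Of all genes 54.98% lay below 0.

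The complexes that RUVBL2 belongs to were also read. Subunits of the RUVBL1/RUVBL2 chromatin complexes had changes between -0.25 and 0.43, with a median of -0.03 over 34 genes that turned to 0.27 with spike-in scaling. The R2TP, TTT and kinase client list had a median of 0.08 over 30 genes, and 0 of either list passed 2-fold, against 1.69% of all genes. The largest value was that of Wdr92, a partner of the R2TP and prefoldin-like complex, which stood at 5.56 and 8.92 with control siRNA and at 5.50 and 7.98 with Ruvbl2 siRNA, a change of -0.88 that arose in LPS. Its 3 dimmer probes gave -0.10, -0.44 and -0.04, so this value rests on 1 probe.

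Macrophage identity genes lay below 0 in 23 of 29 cases, with a median of -0.31 (-0.01 with spike-in scaling) and 0 past 2-fold. Of all genes 54.98% lay below 0. Among all genes 1.69% were past 2-fold. Adgre1, which encodes the surface protein F4/80, stood at 3.15 and 4.26 with control siRNA and at 3.53 and 3.72 with Ruvbl2 siRNA, a change of -0.93. The siRNA difference in this list had a median of 0.22 in DMSO and of -0.09 in LPS. With spike-in scaling the DMSO median turned to -0.08 and that in LPS was -0.10. Lysosomal genes lay below 0 in 26 of 33 cases, with a median of -0.23 that turned to 0.06 with spike-in scaling, led by the cathepsin genes Ctsd (-0.67) and Ctsb (-0.66). Osteoclast genes had a median of -0.13 over 21 genes, turning to 0.17 with spike-in scaling, and the 1 lower gene, Siglec15, was dim, with levels between -4.95 and -3.80. Its change of -1.72 was -0.34 with normexp and quantile normalization.

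**Figure D5:**
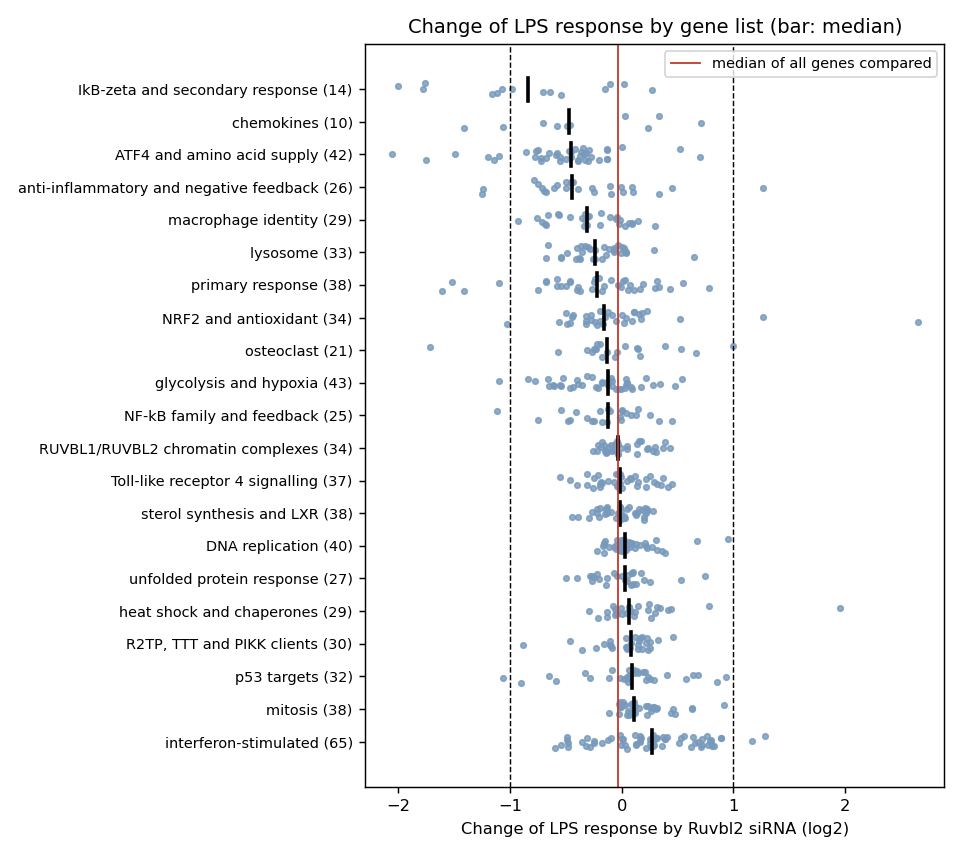
Change of the LPS response (log2, horizontal axis) for the compared genes of 21 lists, 1 point per gene, with a black bar at the list's median and the number of genes in brackets. The red line is the median of all genes and dashed lines mark 2-fold; list medians run from -0.84 for the secondary response to 0.27 for interferon-stimulated genes.

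Outside the lists, the largest changes that arose in LPS were mostly downward. Soat2, which esterifies cholesterol, stood at -0.40 and 1.48 with control siRNA and at -0.38 and -0.18 with Ruvbl2 siRNA, a change of -1.68 (-0.86 by a dim second probe). Ptgir, the prostacyclin receptor, went from -2.52 to -0.17 and from -2.09 to -1.47, a change of -1.73. Cox6a2, a cytochrome oxidase subunit gene, had a change of -1.94 and Arl5c, a small GTPase gene, one of -1.70. In all 4 genes the level in LPS was lower with Ruvbl2 siRNA, by siRNA differences from -1.303 in Ptgir to -1.655 in Soat2, and the DMSO levels differed by at most 0.53. On the higher side Plp2, a membrane protein gene, went from 5.28 to 4.28 with control siRNA and from 4.92 to 5.17 with Ruvbl2 siRNA, a change of 1.26.

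Both treatments contributed to the changes of the Fc receptor genes Fcgr2b and Fcgr4. Fcgr2b, the inhibitory Fc receptor, stood at -1.08 and 1.82 with control siRNA and at -0.31 and 0.83 with Ruvbl2 siRNA, a change of -1.77 (-1.39 by its second probe). Fcgr4, an activating Fc receptor, went from -2.53 to 0.30 and from -1.98 to -0.76, a change of -1.61. Both were higher with Ruvbl2 siRNA in DMSO and lower in LPS. Pi16, a peptidase inhibitor gene, did the same with a larger swing, from -0.91 to 0.39 and from 0.65 to -0.43. As scaled here it was the only gene whose LPS responses passed 2-fold in opposite directions. With spike-in scaling its response with Ruvbl2 siRNA was inside 2-fold.

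Mrps5 and Pa2g4 were brighter examples of opposite responses. Mrps5, a mitochondrial ribosomal protein gene, went from 2.27 to 3.21 with control siRNA and from 3.26 to 2.46 with Ruvbl2 siRNA, a change of -1.73, but its second probe, of like brightness, gave 0.12, and the mean of both was inside 2-fold (-0.81). Pa2g4, a growth regulator gene, went from 4.65 to 4.01 and from 4.01 to 4.76, a change of 1.39. Across all changed genes that had another measured probe, 22 of 25 such probes of lower genes had the same direction and 10 passed 2-fold. For higher genes 10 of 12 had the same direction and 1 passed 2-fold. The median over these other probes was -0.86 for lower genes and 0.30 for higher genes.

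Among genes with a mean level of at least -2, the largest change in either direction arose in DMSO. Syt10, a synaptotagmin gene, stood at 3.41 and 3.02 with control siRNA and at 0.30 and 2.98 with Ruvbl2 siRNA, a change of 3.07. Aldh3a1, an aldehyde dehydrogenase gene, stood at 0.29, -0.04, -2.21 and 0.11 in the same order, a change of 2.66. Hmox1 stood at 4.58, 4.82, 3.45 and 4.96, a change of 1.27. For these 3 genes the Ruvbl2 siRNA DMSO array alone was low, and the other 3 arrays lay within 0.5 of each other.

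Downward changes from DMSO had a high level on that same array. Slc35b4, a nucleotide sugar transporter gene, stood at -0.23 and 0.14 with control siRNA and at 2.34 and 0.53 with Ruvbl2 siRNA, a change of -2.19. Klra2, a lectin-like receptor gene, went up with LPS with both siRNAs, from -4.08 to 1.46 and from -2.22 to 0.78. Its change of -2.53 (-1.44 with normexp and quantile normalization) came mainly from a DMSO level that was 1.86 higher with Ruvbl2 siRNA. Prb1, a proline-rich protein gene, stood high on the Ruvbl2 siRNA DMSO array alone, at -0.19 against -2.55 to -2.36 elsewhere. In all, 17 of the 211 genes had 1 array at least 1 away from the other 3, with those 3 within 0.5 of each other. That array was control siRNA with LPS in 9 genes, Ruvbl2 siRNA with DMSO in 5 and Ruvbl2 siRNA with LPS in 3. This count was chosen after the values were seen. The largest change of all belonged to a dim gene, Ccnd2, which encodes cyclin D2. It stood at -4.54 and -0.69 with control siRNA and at -2.93 and -2.28 with Ruvbl2 siRNA, a change of -3.21 to which both treatments contributed.

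The comparison leaves out genes that were not well above background without LPS, among them several of the strongest LPS targets. There were 151 genes well above background on both LPS arrays and on neither DMSO array, for which only the siRNA difference in LPS can be read. Its median was -0.24, with 99 below 0, 31 lower 2-fold (20.5%) and 9 higher (5.96%). These genes were dim, with a median level of -3.54 on the control siRNA LPS array, so the shares cannot be set beside those of the brighter genes compared above.

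Il6, an acute phase cytokine, had a level of -1.41 in LPS with control siRNA and of -3.54 with Ruvbl2 siRNA, a difference of -2.13. Csf3, a growth factor for granulocytes, stood at 0.31 and -1.78, a difference of -2.09. Il1b, the fever cytokine, stood at 2.75 and 1.36, a difference of -1.38. Each was lower in LPS with Ruvbl2 siRNA and not well above background in DMSO with either siRNA. Other LPS targets among the 151 genes were not all lower. The listed chemokine genes had differences of -0.77 for Ccl7, 0.04 for Ccl12 and 0.48 for Cxcl3. Ifnb1, the interferon upstream of the interferon-stimulated genes, was dim at -4.26 and -4.27 in LPS, and Il12b was undetected on both LPS arrays.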

How the data were processed

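The deposited values are intensity per the file headers: each spot's processed signal from Agilent Feature Extraction (version 11.5.1.1 per the file headers, 11.0 per the submitters' processing notes), background-subtracted, not log-transformed and not normalized between arrays. Repeated spots were averaged without population outliers. Subtracting the log2 of each array's 75th percentile over RNA probes from the log2 signal gave the level. Probes were named through RefSeq accessions, and each gene stands by its probe of highest mean level. No change has an SD or p-value (1 array per group), so their number limits precision. Alternatives were normexp (limma 3.58.1, R 4.3.3, offset 50) with quantile normalization, quantile alone, cyclic loess, median and spike-in scaling, the deposited value table, the mean of probes, other filters and size rules. Normexp used median spot signals, since the files used here hold no mean signal. Scripts ran in Python 3.11.15 and were tested on simulated data.

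Named genes were Ruvbl2, Ruvbl1, a panel of 10 LPS targets, the 15 largest changes per direction with a mean level of at least -2 that kept their direction with normexp, up to 3 genes per direction of each list, and the 5 largest per class of origin. Other list members, the promoter motifs and genes not well above background without LPS were picked after their values were seen. The members and the 25 lists were chosen with earlier results of these data known. A marker gene among the B cell markers is not reported here by name; the counts and sums of that list include it.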

Additional observations from a re-analysis of the deposited data

Results flagged for a closer look

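Of the 25 genes compared (18 with a lower and 7 with a higher response) in which the LPS responses with the siRNAs ran in opposite directions by at least 0.5 each, 7 were among the named genes. This difference was not tested. The changes of these 7 were -2.38 for Pi16, -1.73 for Mrps5, -1.72 for Siglec15, -1.49 for Pck2 and -1.27 for Rmrp, the RNA component of RNase MRP. They were 1.39 for Pa2g4 and 1.34 for Tppp3, a tubulin-binding protein gene. The count of 25 holds as scaled here. With spike-in scaling the responses of Mrps5, Siglec15, Pck2 and Rmrp with Ruvbl2 siRNA are smaller in size than 0.5. For Mrps5 a second probe gave 0.12, and for Pck2 a second probe gave -1.54. For Siglec15, whose technical SD of 0.51 rests on 1 probe, normexp and quantile normalization gave -0.34, which is inside 2-fold. Outside the genes compared, 151 genes were well above background on both LPS arrays and on neither DMSO array, and 31 of them were 2-fold lower with Ruvbl2 siRNA.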

How the results depend on the processing

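No paired analysis was possible because each group has 1 array, and for the same reason no array could be left out. With normexp and quantile normalization 14 genes were higher and 51 lower, 36 arising in LPS, 11 in DMSO and 18 in both. With spike-in scaling 227 were higher and 61 lower, 85 arising in DMSO and 115 in both, and the share of lower among changed genes went from 69.7% to 21.2%. A mean level of at least -2 gave 28 higher and 82 lower (55, 22 and 33 in LPS, DMSO and both), no filter 918 and 1342 (882, 810 and 568), and a 1.5-fold rule 364 and 651 (446, 242 and 327). Shares of 75% and 25% in place of 66.7% and 33.3% put 31 changes in DMSO and 104 in both. Spike-in scaling turned the median change of these lists other than cell type markers: primary response 0.0741, NF-kB family and feedback 0.17, glycolysis and hypoxia 0.17, NRF2 and antioxidant 0.14, osteoclast 0.17, lysosome 0.062 and, from medians close to 0, Toll-like receptor 4 signalling 0.28, sterol 0.28 and RUVBL1/RUVBL2 complexes 0.27. The cause was not tested, beyond the shift of 0.30 that this scaling adds to every gene. Of 46 changed genes in the named set, 46 kept their direction under each scaling and normalization tried; for 34 of them the naming rule required this with normexp, so there it says nothing of stability. Of the 46, 34 stayed past 2-fold with normexp and quantile normalization, 38 with spike-in scaling and 42 with the mean of probes. Signal over background limits the rest: 101 of the 211 changed genes had a mean level under -2.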

Other observations

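Among probes without a gene name, 9222 were well above background on all 4 arrays, of which 114 were higher (1.24%) and 127 lower (1.38%). The NRF2 and antioxidant list had a median change of -0.16 over 34 genes (0.14 with spike-in scaling), with Aldh3a1 and Hmox1 higher and Gstp1, a glutathione transferase gene, lower at -1.02. Among all genes 0.513% were higher and 1.18% lower.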
